A study of Arabidopsis thaliana with 4 samples.

Results

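CES, INO, NGA1, NGA2, NGA3, NGA4, ALC and SPT are 8 Arabidopsis thaliana transcription factor genes of the carpel, the style and the ovule. They are 8 of 14034 genes that the platform annotation names, and 10 of 26474 gene probes read them. The rule that picks their probes reads the platform's probe annotation and no measured value, but the genes were chosen with earlier results of these data known. Of the 10 probes, 1 names CES alone, 3 name INO alone, 2 list only NGA3 and NGA4, 2 list only NGA2 and NGA1, and 2 list only ALC and SPT. A probe that lists a gene pair cannot say which gene of the pair its signal came from. All 10 probes were measured on all 4 arrays.

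The study compared inflorescences of the apetala3 mutant with wild-type inflorescences. APETALA3 is a MADS-box factor that specifies petals and stamens, and flowers of strong mutants have sepal-like organs where petals would be and carpel-like organs where stamens would be. Total RNA of both genotypes was hybridised together on each of 4 long-oligonucleotide arrays, with apetala3 in channel 1 on arrays 1 and 3 and in channel 2 on arrays 2 and 4. The labels give no allele, accession, plant age or growth condition, and nothing in them ties an array to its own plants or RNA extract. The p-values given here rest on array-to-array spread alone, and that spread may be purely technical. Precision is limited by how few arrays there are.

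Every value is a log2 ratio of apetala3 over wild type, so 1 stands for a 2-fold higher signal in apetala3. The labels do not name the numerator of the deposited ratios. The direction is called likely because 5 of 6 measured tapetum and pollen wall genes, which mark stamens, were lower in it, with a list median of -2.93 and a range of -4.10 to 0.07. That list is no independent evidence of the direction. All increases and decreases below exchange places if the direction is wrong. Probes that named APETALA3 or its partner PISTILLATA numbered 0, so the mutant was not checked by its own gene. In these bulk samples, more cells of a type and more RNA per cell cannot be told apart.

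The members act at successive places in the gynoecium, the female organ of the flower. SPT (SPATULA) and ALC (ALCATRAZ) are related basic helix-loop-helix (bHLH) factors. SPT promotes the fusion of carpel margins, the style and the transmitting tract, through which pollen tubes grow, and ALC helps to form the zone where the fruit opens. The 4 NGATHA genes encode B3 domain factors that act redundantly in style and stigma formation. CES (CESTA, also called HAF) is a bHLH factor that acts with BEE1 and BEE3 in the transmitting tract, and it is also known in brassinosteroid signalling. INO (INNER NO OUTER) is a YABBY factor needed for the outer integument of the ovule.

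CES and the probes of NGA3/NGA4 and ALC/SPT were higher in apetala3, while INO and the probes of NGA1/NGA2 did not pass the test. Of the 10 probes, 5 rose, 0 fell and 5 did not pass at a limma adjusted p under 0.05. Among all 25588 genes and probes tested, 8.43% were called higher and 10.1% lower, and 8.28% were higher when every probe was tested by itself. At an unadjusted p under 0.05, 6 of the 10 probes were higher and 0 were lower. The share of all genes and probes at this unadjusted threshold was not counted, so the percentages above are no match for it. The ratio was above 0 on all 4 arrays for 7 of the 10 probes, against 30.5% of all genes and probes measured on 4 arrays. Probes that list the same genes may share their targets, so these counts cannot be taken as counts of independent items.

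**Figure D1:**
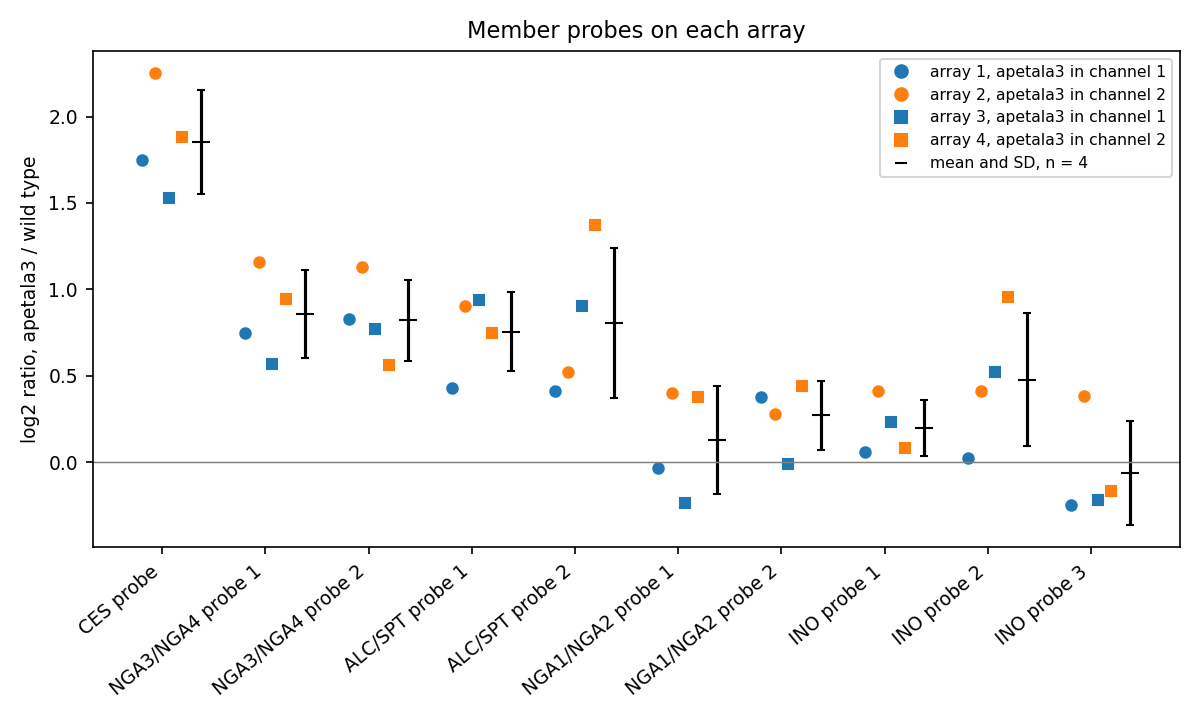
Log2 ratio of apetala3 over wild type for each of the 10 member probes on each array; blue points are arrays with apetala3 in channel 1, orange points arrays with it in channel 2, and bars the mean and SD over 4 arrays. The CES probe lies above every other probe on each array, and the probes of NGA3/NGA4 and ALC/SPT lie above 0 on every array.

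CES (AT1G25330) gave the largest change of the members. Its probe had log2 ratios of 1.75, 2.25, 1.53 and 1.88 on arrays 1 to 4. All 4 values were far above 0, and even the lowest stood for a 2.89-fold higher signal in apetala3. The mean was 1.85 ± 0.30 (SD, n = 4 arrays), or 3.61-fold, with a limma adjusted p of 0.00117. The unadjusted 95% interval of the fold change was 2.83 to 4.60. Only 61 of the 25588 genes and probes had a higher mean, which is 0.238% of them, and 19 of the 5330 genes read by probes of their own. An increase of at least 2-fold was called for 0.965% of all genes and probes. CES passed the test under each of the 11 alternatives that applied to it, the other direction of the ratios aside, with means between 1.72 and 1.96.

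NGA3 and NGA4 (AT1G01030 and AT4G01500) rose on both probes that list them. The first probe had log2 ratios of 0.75, 1.16, 0.57 and 0.95 on arrays 1 to 4, and the second 0.83, 1.13, 0.77 and 0.56. All 8 values lay above 0, and both probes were highest on array 2. The first probe had a mean of 0.86 ± 0.26 (SD, n = 4 arrays), or 1.81-fold, with a limma adjusted p of 0.0107. The second had a mean of 0.82 ± 0.23, or 1.77-fold, with a limma adjusted p of 0.0106. Both probes averaged on each array gave 0.84 ± 0.21, which 2.78% of all genes and probes exceeded. Without array 1 neither probe passed the test, with means of 0.89 and 0.82 and limma adjusted p values of 0.0581 and 0.0664.

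NGA1 and NGA2 (AT2G46870 and AT3G61970) did not pass the test on either probe. The first probe had log2 ratios of -0.03, 0.40, -0.24 and 0.38 on arrays 1 to 4. It was above 0 only on the arrays with apetala3 in channel 2. The second had 0.38, 0.28, -0.01 and 0.44, with array 3 alone below 0. The means were 0.13 ± 0.31 and 0.27 ± 0.20 (SD, n = 4 arrays), with limma adjusted p values of 0.553 and 0.147. Averaged on each array, both probes gave 0.20 ± 0.24, with an unadjusted 95% interval of the fold change of 0.929 to 1.42. A mean as high or higher is common, since 38.5% of all genes and probes exceeded it.

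ALC and SPT (AT5G67110 and AT4G36930) rose on both probes, 1 of them with a wide spread. The first probe had log2 ratios of 0.43, 0.91, 0.94 and 0.75 on arrays 1 to 4. The second had 0.41, 0.52, 0.90 and 1.37. Both were lowest on array 1, and all 8 values lay above 0. The first had a mean of 0.76 ± 0.23 (SD, n = 4 arrays), or 1.69-fold, with a limma adjusted p of 0.0135. The second had 0.80 ± 0.44, or 1.75-fold, with a limma adjusted p of 0.0363. Averaged on each array, they gave 0.78 ± 0.28 (limma adjusted p = 0.0166), which 3.37% of all genes and probes exceeded. The first probe lost its call without array 2, at 0.71 (limma adjusted p = 0.0652). The second lost it without array 1, 2 or 3, with means of 0.93, 0.90 and 0.77 and limma adjusted p values of 0.0809, 0.0875 and 0.102. It also lost it with arrays centred on their medians, with a channel effect in the fit and with values at the 100-fold limit kept (limma adjusted p = 0.0626, 0.0582 and 0.0605).

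INO (AT1G23420), the member that acts in the ovule, did not pass the test on any of its 3 probes. The first probe had log2 ratios of 0.06, 0.41, 0.23 and 0.08 on arrays 1 to 4, the second 0.02, 0.41, 0.52 and 0.96, and the third -0.25, 0.39, -0.22 and -0.17. The second probe was above 0 on every array, whereas the third was above 0 only on array 2. Tested by themselves, they had means of 0.20 ± 0.16, 0.48 ± 0.38 and -0.06 ± 0.30 (SD, n = 4 arrays), with limma adjusted p values of 0.234, 0.10 and 0.773. Averaged on each array, the 3 probes gave -0.06, 0.40, 0.18 and 0.29. The gene mean was 0.20 ± 0.20, with a limma adjusted p of 0.243. The unadjusted 95% interval of the fold change was 0.949 to 1.4. A further probe lists INO with YAB2 and YAB5, other YABBY genes, and falls outside the members. It had 0.44, 2.02, 0.55 and -0.22 on arrays 1 to 4, spread too widely to pass the test (mean 0.70 ± 0.94, SD, limma adjusted p = 0.215).

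**Figure D2:**
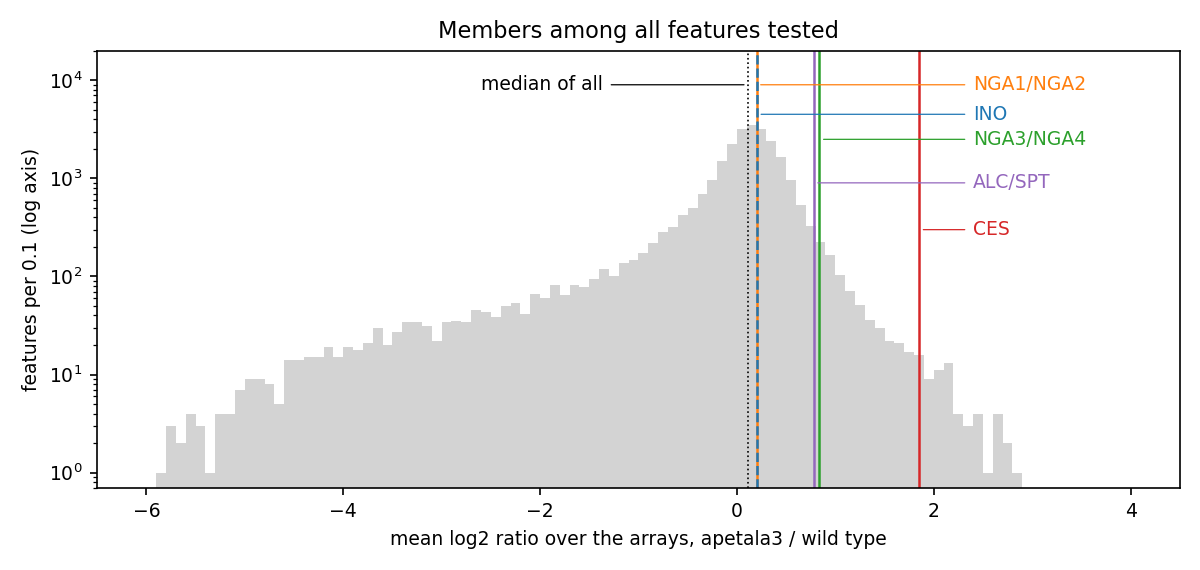
Number of genes and probes (log axis) in each step of 0.1 of the mean log2 ratio of apetala3 over wild type, with vertical lines at the means of CES, NGA3/NGA4, ALC/SPT, NGA1/NGA2 and INO and a dotted line at the median of all, 0.11. NGA1/NGA2 and INO, both at 0.20, lie near the centre, NGA3/NGA4 at 0.84 and ALC/SPT at 0.78 lie on the upper shoulder, and CES at 1.85 lies in the upper tail.

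Probes that list the same genes gave close means for the gene pairs. The first NGA3/NGA4 probe differed from the second by 0.03 ± 0.25 (SD of the difference, n = 4 arrays), the first ALC/SPT probe from its partner by -0.05 ± 0.42, and the first NGA1/NGA2 probe by -0.14 ± 0.23. For comparison, 1193 gene pairs measured by exactly 2 such probes on all arrays had a median absolute difference of 0.28 between them, with quartiles of 0.11 and 0.60. Single arrays still differed, since the ALC/SPT probes were 0.63 apart on array 4. The 3 INO probes spanned 0.54 in their means, against a median span of 0.32 over the 20 genes with 3 such probes. The second INO probe exceeded the third by 0.03 to 1.13, in 4 of 4 arrays. In an exact two-sided sign-flip permutation test, 2 of the 16 sign patterns gave a difference as large, the fewest that 4 arrays allow, and the p was 0.375 after Benjamini-Hochberg adjustment over the 6 probe comparisons.

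In 2 of the 3 member pairs both probes rose. Of 1262 gene pairs listed by exactly 2 probes that were tested, both rose in 1.51% and at least 1 rose in 13.7%. Other bHLH pairs in the data show how 2 probes of a pair can differ, and whether both read the same gene is unknown. One probe listing bHLH115 and ILR3 rose, at 0.53 ± 0.12 (SD, n = 4 arrays, limma adjusted p = 0.0206), while the second was at 0.00 (limma adjusted p = 0.979). Likewise 1 probe listing bHLH104 and bHLH34 fell to -0.66 ± 0.21 (limma adjusted p = 0.0180), while the second was at -0.12 (limma adjusted p = 0.519). Both of these calls were lost without array 1, 2 or 3.

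The members were set against each other on the same array, with the probes of each gene or pair averaged. CES exceeded every other member on all 4 arrays, by 0.86 to 1.13 over NGA3/NGA4, 0.61 to 1.54 over ALC/SPT, 1.35 to 1.85 over INO and 1.47 to 1.91 over NGA1/NGA2. NGA3/NGA4 exceeded NGA1/NGA2 on all 4 arrays as well, by 0.64 ± 0.21 (SD, n = 4 arrays). INO lay below both NGA3/NGA4 and ALC/SPT on every array, by a mean of -0.63 and -0.58, and NGA1/NGA2 lay below ALC/SPT on every array, by a mean of -0.58. Each of these 8 differences had the same sign on all arrays. The exact two-sided sign-flip permutation test gave each the smallest p that 4 arrays allow, 2 of 16 sign patterns, or 0.156 adjusted over 10 comparisons. This test cannot give a p under 0.05 with 4 arrays, so the differences are described by their size and spread.

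The remaining comparisons gave no order. NGA3/NGA4 exceeded ALC/SPT on arrays 1 and 2, by 0.36 and 0.43, and lay below it on arrays 3 and 4, at -0.25 and -0.31. Their mean difference was 0.06 ± 0.39 (SD, n = 4 arrays, exact sign-flip permutation p = 0.750). INO and NGA1/NGA2 differed by 0.00 ± 0.23, with 2 arrays on either side of 0 (exact sign-flip permutation p = 1.0). By the size of the mean change, CES came first, then NGA3/NGA4 and ALC/SPT, which did not differ beyond their spread. INO and NGA1/NGA2 came last and did not differ beyond theirs. This order is a description, since the sign-flip test with 4 arrays could not settle it. The values compared are differences between changes and say nothing of which gene had the higher level.

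**Figure D3:**
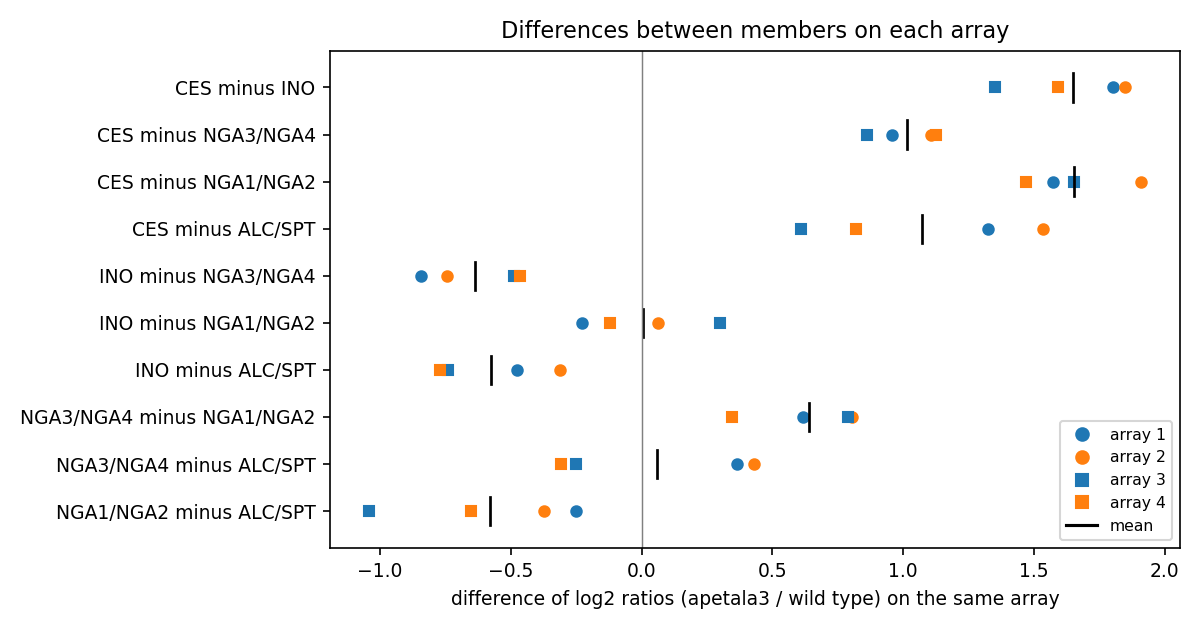
Difference between the log2 ratios (apetala3 over wild type) of each combination of members on the same array, with points for arrays 1 to 4 and a black bar at the mean. All points of CES minus another member lie to the right of 0, whereas those of NGA3/NGA4 minus ALC/SPT, with a mean of 0.06, and of INO minus NGA1/NGA2, with a mean of 0.00, fall on both sides.

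All 10 member probes had a higher mean on the arrays with apetala3 in channel 2 than on those with it in channel 1. This order held for 50.4% of all genes and probes measured on 4 arrays. CES had means of 2.07 and 1.64 in these orientations, and both NGA3/NGA4 probes averaged 0.95 and 0.73. ALC/SPT had 0.89 and 0.67, INO 0.35 and 0.06, and NGA1/NGA2 0.37 and 0.02. The increases of CES, NGA3/NGA4 and ALC/SPT were thus present in both orientations. In 4 probes both channel 2 arrays lay above both channel 1 arrays, as in 20.3% of genes and probes. The largest gap of these in the pair probes was that of the first NGA1/NGA2 probe, 0.52, with an unadjusted limma p of 0.0461 and an adjusted p of 0.728. A limma test of the orientations passed 0 of 25588 genes and probes, with 6.78% at an unadjusted p under 0.05.

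Arrays 2 and 4 held the highest value of 9 of the 10 member probes, with 6 on array 2. The lowest value fell on array 1 for 5 probes and on array 3 for 4. Spots that carry no probe had medians above 0 on array 1 (0.76), array 2 (0.56) and array 4 (0.84), as had the CES, NGA3/NGA4 and ALC/SPT probes on every array, but at -0.27 on array 3. On array 3, where these empty spots were below 0, CES was at 1.53, the NGA3/NGA4 probes at 0.57 and 0.77 and the ALC/SPT probes at 0.94 and 0.90. The INO average was 0.18 there and the NGA1/NGA2 average -0.12. The part of such an offset in the members' values was not tested on any array. All genes and probes together had a median of 0.11, and relative to it CES was at 1.74, NGA3/NGA4 at 0.72, ALC/SPT at 0.67, INO at 0.09 and NGA1/NGA2 at 0.08.

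In the platform annotation, few probes named only other genes of the gynoecium. Whether more of them lie among the 13193 gene probes without a gene symbol is unknown. A list of 78 genes of carpel identity, style, transmitting tract and ovule, members included, was covered by 12 genes or probes, of which 7 rose, 1 fell and 4 did not pass, where 8.43% of all genes and probes rose and 10.1% fell. Their median was 0.42, against 0.11 for all genes and probes. Without array 1 there were 2 higher and 0 lower. CES, INO and the 6 pair probes account for 8 of the 12, and of the other 4, 2 rose, 1 fell and 1 did not pass, with a median of 0.19. A probe listing JAG and NUB, zinc finger factors of organ growth that act together in stamens and carpels, was at 0.50, 0.54, 0.42 and 0.47 on arrays 1 to 4. These values were nearly equal, with a mean of 0.48 ± 0.05 (SD, n = 4 arrays, limma adjusted p = 0.0206). SEU (SEUSS), a corepressor adaptor that limits AGAMOUS activity in the flower, was at 0.35 ± 0.04 (limma adjusted p = 0.0468). The SEU call was lost whichever array was left out, with arrays centred and with a channel effect in the fit, and that of JAG and NUB without array 1, 2 or 3.

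SPL (SPOROCYTELESS, also NOZZLE), which starts sporogenesis in both anther and ovule, was the gene of this list that fell. Its log2 ratios were -0.68, -0.39, -0.60 and -0.30 on arrays 1 to 4, all below 0, with a mean of -0.49 ± 0.18 (SD, n = 4 arrays, limma adjusted p = 0.0337). This call was lost without array 1, 2 or 3, and SPL is also on the tapetum and pollen wall list that set the direction. TCP15, a TCP factor of gynoecium development, was at 0.03 (limma adjusted p = 0.837), with no settled sign, since it was at -0.07 once arrays were centred. Of the families of the members, 0 of the other YABBY genes were read by probes of their own. Probes that named only genes of the fixed NGATHA and RAV list read 0 genes besides the members. A wider list of the MADS-box, B3, bHLH and YABBY families held 48 genes or probes without the members. Of these, 4 rose, 8 fell and 36 did not pass, with a median of 0.00. Among all genes and probes, 8.43% rose and 10.1% fell. Most of the 48 were MADS-box genes, a family that holds none of the members, and 5 were bHLH and 1 YABBY. Several of these probes list the same genes.

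Markers of other floral tissues moved as well. All 5 genes or probes of the egg cell, the female gamete inside the ovule, had means above 0, between 0.52 and 1.34, and 3 of them rose. Several of the 5 list the same genes, so they are not independent items. Among all genes and probes, 8.43% rose and 10.1% fell, and the median was 0.11. The nectary gene SWEET9 was at -4.79, the 1 measured member of the petal and nectary list, and both genes or probes of the mature pollen list fell, at -0.44 and -2.77. On the tapetum and pollen wall list, EMS1, a receptor kinase of early anthers, was the 1 gene that did not fall, at 0.07. Whether these shifts have a part in the members' values was not tested.

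For each member probe, the genes with the most similar ratios over the 4 arrays were sought among the 5170 genes read by probes of their own and measured on every array. Closest to CES was AT5G22960, with 1.67, 2.27, 1.51 and 2.09 on arrays 1 to 4 and a root mean square difference of 0.11. AT1G72290 and AT5G57500 followed, at means of 1.99 and 1.66 and differences of 0.22 and 0.25. The first NGA3/NGA4 probe was closest to AT3G30460, TRM23 and AT3G59270, with differences of 0.07, 0.14 and 0.16. The second was closest to AGO7, an ARGONAUTE of small RNA silencing, to AT5G23510 and again to TRM23, with differences of 0.09, 0.10 and 0.11. The ALC/SPT probes were closest to AT3G46650, with a difference of 0.07, and AT1G31840, with 0.11. All 4 arrays repeat 1 comparison, so this likeness is a description with no test.

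**Figure D4:**
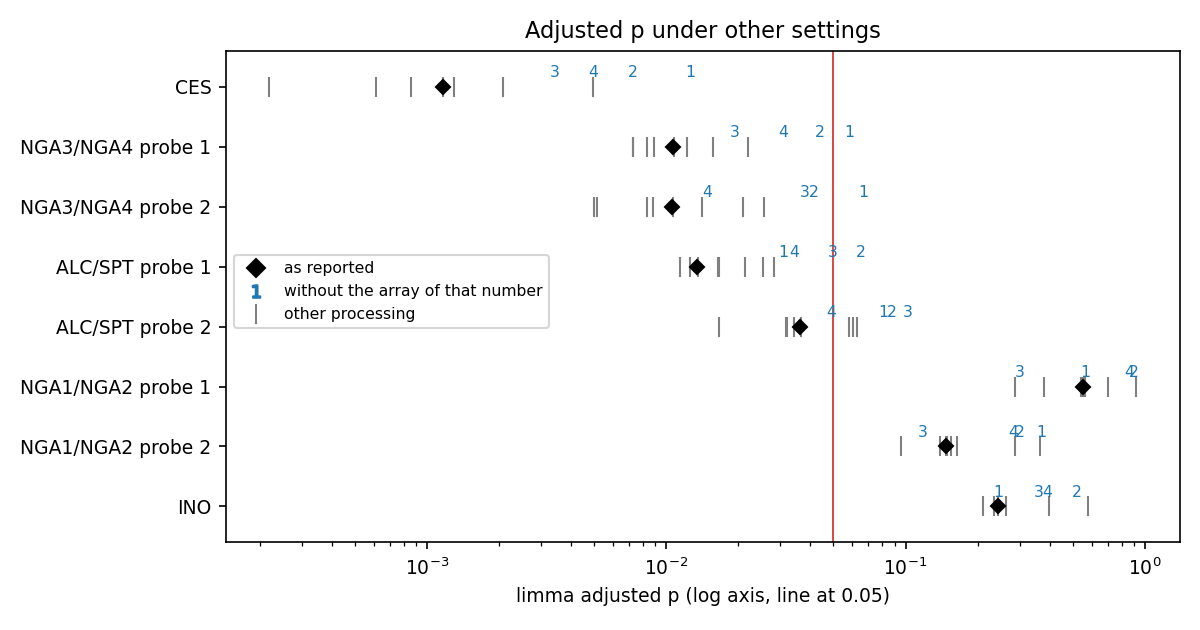
Limma adjusted p (log axis, red line at 0.05) of each member under the reported setting (diamonds), without each array in turn (blue numerals give the array left out) and under other processing (grey ticks). CES stays left of the line throughout, and NGA1/NGA2 and INO stay right of it. The second ALC/SPT probe by itself falls on both sides, between 0.0316 and 0.102. Rows of pair probes also carry a tick for both probes averaged, which for ALC/SPT is at 0.0166.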

How the data were processed

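The deposited values were log2 ratios of both channels of each array, which the authors had processed and normalized, per the labels. For the method the labels cite a publication, and how the scans were corrected and normalized was not stated in them. The log2 scale was read from the values, which stop at 100-fold on either side. Column medians as deposited were -0.11, 0.13, -0.09 and 0.08 on arrays 1 to 4, and the centring and the direction stay unknown. Arrays 1 and 3 were multiplied by -1, after which all array pairs correlated across probes, with a Pearson r of 0.62 to 0.81. The rank correlation was lower, with a Spearman rho from 0.34 for arrays 3 and 4 to 0.66 for arrays 1 and 2. Values of absolute size above 6.6438 were taken as not measured.

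Of 26474 gene probes, 5784 have 1 gene symbol in the platform annotation, 7497 several and 13193 none. Of the probes with 1 gene symbol, 5756 matched the table of assembly TAIR10.1 by gene ID, and their symbols were taken from it. Symbols on probes that list several genes were updated in the same way. On each array, probes that share their only gene were averaged, other probes were kept single, and those measured on at least 3 arrays were tested against 0 with limma 3.58.1 in R 4.3.3 (lmFit, eBayes, Benjamini-Hochberg adjustment over all 25588). Adjusted p values of the CES and INO probes come from a fit of every probe by itself. The procedure was tested on simulated data. Differences between members were tested with an exact two-sided sign-flip permutation test.

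The members and gene lists were chosen with earlier results of these data known. All member probes, all list genes read, the 3 highest and lowest called genes of the bHLH and B3 families and the 3 genes most like each probe could be named. The bHLH pairs and the marker genes were named after their values were seen. The bHLH family was taken from symbols and synonyms, which took in neither CES nor the ALC/SPT probes. Alternatives were leaving out each array, centring, quantile normalization, a channel effect, array weights, keeping limit values, a filter to 4 arrays, single probes, averaged pairs and the opposite sign.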

Additional observations from a re-analysis of the deposited data

Results flagged for a closer look

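The third INO probe had 1 array far from the rest, with 0.39 on array 2 against -0.25, -0.22 and -0.17 on arrays 1, 3 and 4. Among the 18 sets of 4 values examined in this way, chance gives about 0.9.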

How the results depend on the processing

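Each log2 ratio already pairs both genotypes on 1 array, and each array is 1 replicate of the same comparison. No pairing beyond that was possible. CES passed under all 11 alternatives apart from the turned sign, with means of 1.72 to 1.96, and INO and both NGA1/NGA2 probes passed under 0 of theirs. Without 1 array in turn, the means were 0.75 to 0.95 and 0.72 to 0.91 for the NGA3/NGA4 probes and 0.70 to 0.86 and 0.61 to 0.93 for the ALC/SPT probes. The second ALC/SPT probe was not past the threshold at 0.70 with centring, or at 0.80 with a channel effect and with limit values kept. TCP15 was at -0.0675 with centring and between -0.0265 and 0.0985 without 1 array. With the sign turned, CES was at -1.85, INO at -0.20, the NGA3/NGA4 probes at -0.86 and -0.82, the NGA1/NGA2 probes at -0.13 and -0.27 and the ALC/SPT probes at -0.76 and -0.80, and the gynoecium list had 1 higher and 7 lower.

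Over all genes and probes, 2158 were higher and 2579 lower. Without 1 array there were 287 to 2149 higher and 1378 to 2544 lower, the fewest without array 1. Array 2 left out gave 438 higher and 1524 lower, and array 3 left out gave 795 and 1869. Higher calls numbered 1065 with centring (2905 lower, 73.2% of calls against 54.4%), 1430 with a channel effect (2329 lower), 1430 when limit values stayed in (2109 lower) and 3751 under array weights (3056 lower). An adjusted p under 0.01 left 304 higher and 1341 lower, and a 2-fold minimum 247 and 1657. The gynoecium list had 2 to 6 higher and 0 to 1 lower without 1 array. The 53 genes and probes of the 4 families hold INO and the NGATHA probes but not CES or the ALC/SPT probes. They had 6 higher and 8 lower, where 8.43% of all genes and probes were higher and 10.1% lower. Without 1 array they had 0 to 4 higher and 3 to 8 lower, and with centring and with limit values kept 3 higher. The cause of these shifts was not tested. INO has no value with single probes, which are given each by itself above. The deposited files hold no spot intensities, so signal over background was not used here.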
